A study of Mus musculus with 6 samples.

Results

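Transcription factors of the myeloid lineage were examined in primary mouse osteocytes, as a group of 9 genes taken by symbol (Spi1, Irf8, Maf, Cebpa, Cebpb, Ikzf1, Runx1, Tfec and Lyl1) from the 56748 genes of the deposited count table. The cells were isolated from long bones of mice, for which the study's methods give an age of 7 weeks, and were cultured for 7 days. There were 3 libraries from wild-type (WT) mice and 3 labelled cKO, for mice carrying Gsdmd fl/fl and DMP1-Cre, in which Gsdmd, the gene of the pore-forming protein of pyroptosis, was to be deleted in osteocytes. Every culture of both genotypes received lipopolysaccharide (LPS) at 10 ng/ml for 3 h and then aluminum hydroxide at 20 µg/ml for 3 h, and no unstimulated library was analysed here, so the comparison asks how the genotypes differ under stimulation and not how either responded to it. Cre expression in this model is driven by the Dmp1 promoter, so a cell in the culture that never used this promoter keeps its Gsdmd. Whether a library held cells of 1 mouse or of several, and whether cultures were separate, was not given in the sources used here, so that p-values measure the spread between these libraries, which may be technical.

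Macrophages, monocytes, granulocytes and osteoclasts descend from blood-forming precursors, and their identity is set by a small circuit of DNA-binding proteins. PU.1, the product of Spi1, opens myeloid enhancers together with C/EBP factors and RUNX1, IRF8 directs precursors toward monocytes and macrophages in complex with PU.1, and MAF helps to hold mature macrophages in their differentiated state. Osteocytes and osteoblasts come from the mesenchymal lineage, which is specified by other factors such as RUNX2, although C/EBP beta and RUNX1 are widely used outside the blood as well.

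The labels were first compared with the data. Library totals lay between 39566835 and 49734046 counts. Gsdmd had 609, 699 and 549 counts in the WT libraries and 885, 937 and 1045 in the cKO-labelled ones, so it was higher where it was to be deleted (log2 fold change 0.69, adjusted p = 2.27e-06), and the gene total does not show whether the floxed exons were present. Xist had 0 to 4 counts in the WT libraries and 44817 to 51216 in the cKO-labelled libraries, and the Y-linked genes Ddx3y, Uty, Eif2s3y and Kdm5d were at 0 in all cKO-labelled libraries. Genotype and sex therefore cannot be told apart in any difference below. Among defining osteocyte markers Sost was at 0 in every library, Mepe at 0 in WT and Dmp1 at 0.0344 ± 0.0595 CPM (counts scaled to library size, SD, n = 3) in WT and 0.0955 ± 0.0521 in cKO-labelled libraries. Of the 10 listed osteocyte markers 4 passed the filter on low counts, and these are also made by other mesenchymal cells. Tnfrsf11b was at 483 ± 24.4, Ackr3 at 327 ± 18.9, Pdpn at 234 ± 7.59 and Irx5 at 5.25 ± 1.25 CPM in WT. The mature osteocyte genes Sost, Mepe and Dmp1 were thus near 0 while other genes of the list were well expressed.

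All 9 factors were higher in the cKO-labelled libraries. In the plot of each library the lowest cKO-labelled value lay above the highest WT value for 9 of 9 factors, against 25.3% of all tested genes with that arrangement. With edgeR's quasi-likelihood test across 17146 genes, 9 of 9 passed an adjusted p of 0.05 in the upward direction, where 20.1% of all tested genes did. A gene was called when its log2 fold change also reached 1, and 7 of the 9 factors were called higher, against 6.56% of all genes. Cebpb and Runx1 were the exceptions, with an increase below that limit. None was called lower (0 of 9, against 4.64% of all genes), and 0 were lower at an unadjusted p of 0.05 or by DESeq2, edgeR's exact test or limma-voom. The median log2 fold change of the factors was 1.99, and that of all tested genes was 0.0077. An exact two-sided permutation test over the 3 against 3 libraries gave p = 0.1 for each factor, the smallest value this design allows.

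**Figure D1:**
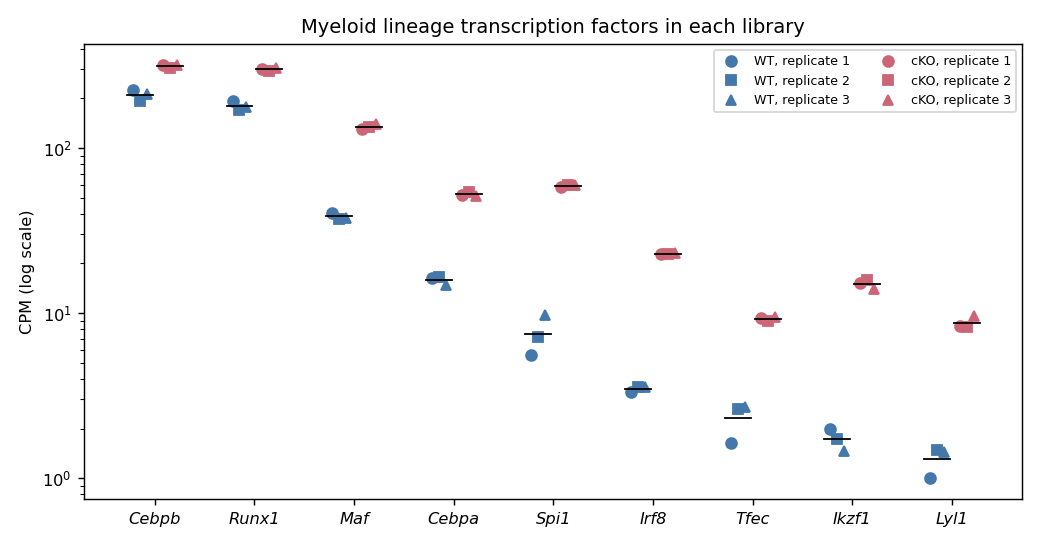
CPM of each factor (log axis) in the 3 WT (blue) and 3 cKO-labelled (red) libraries, with the marker shape giving the replicate number and the black line the group mean. No factor overlaps between groups, and the difference of group means runs from 1.49-fold for Cebpb to 8.64-fold for Ikzf1.

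Spi1 and Irf8, which together specify the monocyte and macrophage branch, went from a low to a clear level. Spi1 (ENSMUSG00000002111, mm39 chr2:90912735-90946101, plus strand) was at 5.55, 7.13 and 9.74 CPM in WT and at 58.1, 60.0 and 59.5 CPM in cKO-labelled libraries. The WT libraries spread widely around their mean, whereas the cKO-labelled libraries were nearly identical. The mean rose 7.92-fold, from 7.48 ± 2.11 to 59.2 ± 0.960 CPM (SD, n = 3 each; log2 fold change 2.99, SE 0.124, 95% confidence interval 2.73 to 3.26, adjusted p = 1.72e-12). Irf8 (ENSMUSG00000041515, chr8:121463097-121483433, plus strand) was at 3.31, 3.55 and 3.58 CPM in WT and at 23.0, 22.8 and 23.0 CPM in cKO-labelled libraries. Its values were tight in both groups, and the mean rose 6.60-fold (log2 fold change 2.72, SE 0.101, adjusted p = 3.65e-13).

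Maf (ENSMUSG00000055435, chr8:116409681-116434533, minus strand), a large MAF factor of differentiated macrophages that also acts in T cells, lens and cartilage, was at 40.5, 37.4 and 37.8 CPM in WT and at 129.9, 135.0 and 140.4 CPM in cKO-labelled libraries. The groups were well apart, and the 3.50-fold rise had a small error (log2 fold change 1.81, SE 0.052, adjusted p = 1.39e-14). It had the smallest adjusted p of the 9, although 5 others had a larger fold change.

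The C/EBP factors differed from each other in size of change. Cebpa (ENSMUSG00000034957, chr7:34818718-34821353, plus strand), whose product starts the granulocyte and monocyte program and is also used by fat and liver cells, was at 16.2, 16.5 and 14.8 CPM in WT and at 52.1, 54.2 and 51.2 CPM in cKO-labelled libraries, a 3.31-fold rise (log2 fold change 1.73, SE 0.067, adjusted p = 6.77e-13). Cebpb (ENSMUSG00000056501, chr2:167530835-167532338, plus strand), an LPS-inducible factor of acute-phase and cytokine genes in many cell types, was at 225.2, 193.4 and 213.5 CPM in WT and at 316.8, 307.6 and 320.3 CPM in cKO-labelled libraries. The groups did not overlap, yet the mean rose only 1.49-fold (log2 fold change 0.58, SE 0.050, 95% confidence interval 0.47 to 0.69, adjusted p = 3.41e-08), the smallest change of the 9.

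Factors of early blood cells held the largest fold change and one of the smallest. Ikzf1 (ENSMUSG00000018654, chr11:11634980-11722926, plus strand), encoding the zinc finger protein Ikaros of lymphoid and myeloid cells, was at 2.00, 1.73 and 1.47 CPM in WT and at 15.2, 15.8 and 13.96 CPM in cKO-labelled libraries. Its 8.64-fold rise was the largest of the 9 (log2 fold change 3.10, SE 0.144, adjusted p = 7.67e-12), and it started from 57 to 90 counts a library in WT. Lyl1 (ENSMUSG00000034041, chr8:85428078-85431569, plus strand), a basic helix-loop-helix protein of blood stem cells and macrophage precursors, was at 1.00, 1.49 and 1.44 CPM in WT and at 8.34, 8.27 and 9.60 CPM in cKO-labelled libraries. It rose 6.66-fold from 45 to 74 counts a library in WT (log2 fold change 2.73, SE 0.186, adjusted p = 1.45e-09). Runx1 (ENSMUSG00000022952, chr16:92398354-92623037, minus strand), which is needed for the emergence of blood stem cells and is also made in cartilage and bone precursors, was at 191.9, 171.3 and 176.8 CPM in WT and at 300.9, 295.1 and 307.7 CPM in cKO-labelled libraries. The increase was clear of the spread but modest, at 1.67-fold (log2 fold change 0.74, SE 0.046, adjusted p = 3.77e-10).

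Tfec (ENSMUSG00000029553, chr6:16833372-16898440, minus strand) encodes the member of the MiT/TFE family that is largely restricted to macrophages. It was at 1.64, 2.62 and 2.71 CPM in WT and at 9.32, 8.90 and 9.49 CPM in cKO-labelled libraries. The WT libraries again spread more than the others, and the mean rose 3.98-fold (log2 fold change 1.99, SE 0.178, adjusted p = 5.91e-08).

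The start regions of these genes were searched for short motifs bound by factors of the group and by LPS-responsive factors. RefSeq windows of 300 bases, from 250 before to 50 after a transcription start on GRCm38.p6, were matched by symbol for 7 of the 9 genes, with 10 windows among them, and each sequence occurred once in GRCm39, whose coordinates are given here. The 4 windows shown are 3 that hold the ETS core, alone or with RUNX motifs, and that of Cebpb, the factor that moved least. They are the second windows of Ikzf1 (chr11:11639927-11640226, plus strand) and Runx1 (chr16:92622913-92623212, minus strand) and the windows of Tfec (chr6:16898391-16898690, minus strand) and Cebpb (chr2:167530585-167530884, plus strand). The sequences run 5′ to 3′ on the strand of the gene, and capitals mark matches, on either strand, to the ETS core AGGAAG, the RUNX motif TGTGGT, the MiT/TFE motif CACGTGA or the NF-kB motif GGGANNNCC.
Ikzf1: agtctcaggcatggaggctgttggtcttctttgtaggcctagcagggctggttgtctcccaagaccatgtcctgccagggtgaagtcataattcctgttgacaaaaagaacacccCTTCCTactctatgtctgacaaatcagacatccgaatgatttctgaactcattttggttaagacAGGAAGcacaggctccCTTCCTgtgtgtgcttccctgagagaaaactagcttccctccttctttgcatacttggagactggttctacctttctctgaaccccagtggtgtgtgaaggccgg
Tfec: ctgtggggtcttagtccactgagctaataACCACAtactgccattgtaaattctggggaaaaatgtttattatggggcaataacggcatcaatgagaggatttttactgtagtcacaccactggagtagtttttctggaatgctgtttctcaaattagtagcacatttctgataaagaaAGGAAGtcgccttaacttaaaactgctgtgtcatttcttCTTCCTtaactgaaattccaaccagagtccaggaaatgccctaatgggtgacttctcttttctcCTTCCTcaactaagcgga
Runx1: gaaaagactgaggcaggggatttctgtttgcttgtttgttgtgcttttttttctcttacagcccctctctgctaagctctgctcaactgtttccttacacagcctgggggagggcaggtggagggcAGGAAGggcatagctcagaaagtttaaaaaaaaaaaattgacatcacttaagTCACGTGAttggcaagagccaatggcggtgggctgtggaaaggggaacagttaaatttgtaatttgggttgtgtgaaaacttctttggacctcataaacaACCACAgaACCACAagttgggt
Cebpb: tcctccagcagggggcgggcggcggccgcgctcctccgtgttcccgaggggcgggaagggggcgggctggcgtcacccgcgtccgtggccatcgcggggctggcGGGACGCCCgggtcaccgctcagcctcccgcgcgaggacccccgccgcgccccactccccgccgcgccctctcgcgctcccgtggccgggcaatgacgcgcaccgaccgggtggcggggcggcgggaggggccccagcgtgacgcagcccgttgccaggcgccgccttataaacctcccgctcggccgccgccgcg
In the Ikzf1 and Tfec windows the ETS core, the recognition sequence shared by PU.1 and its relatives, occurred 3 times, which 1.9% of the 32851 RefSeq windows reached. The Runx1 window held 1 ETS core and 2 RUNX motifs, a number found in 1.81% of all windows, and CACGTGA on both strands at overlapping positions. The Cebpb window, with a GC content of 80.7%, held 1 NF-kB match and no ETS core. Over the 10 windows of the group the ETS core was in 3, against 35.4% of all windows, and the RUNX motif was in 2, against 16.8%. The longer PU.1 motif GAGGAAGT, which contains the ETS core, was in 0 of 10 windows (3.2% of all), as were the C/EBP motif TTGCNNAA (10.8%), the IRF motif GAAANNGAA (8.56%) and the AP-1 motif TGANTCA (7.81%). Of the other motifs searched, the ETS-IRF composite GGAANNGAA was in 1 window (8.24% of all), the other Runx1 window, where it occurred 2 times (0.46% of all), the MAF motif TGCTGA in 2 (19.5%), the Ikaros motif TGGGAA in 2 (25.6%), the MiT/TFE motif in 1 (3.77%) and the NF-kB motif in 3 (18.6%). A match is a run of letters and not evidence of binding.

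Levels between genes were compared per length, in TPM, the length-scaled counterpart of CPM. In WT, Cebpb stood at 540 ± 44.3 TPM and made up 82.3% of the summed TPM of the 9 factors, followed by Runx1 at 57.7 ± 3.68, Cebpa at 23.2 ± 1.29, Maf at 18.03 ± 0.858 and Spi1 at 10.7 ± 3.04 TPM. Lyl1, Irf8, Tfec and Ikzf1 lay between 2.48 and 0.734 TPM, where the libraries of Lyl1 and Irf8 overlapped, as did those of Irf8 and Tfec. In the cKO-labelled libraries Cebpb was still the highest, at 788 ± 17.5 TPM, but made up 69.0% of the sum. Spi1 moved from place 5 to place 3, at 82.6 ± 1.20 TPM, above Cebpa at 74.99 ± 2.09 and Maf at 61.7 ± 2.37. Only the last pair, Tfec at 6.21 ± 0.211 and Ikzf1 at 6.19 ± 0.383 TPM, overlapped there.

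The spread among WT libraries was uneven over the factors. The coefficient of variation in WT was 28.3% for Spi1, 25.4% for Tfec, 20.7% for Lyl1 and 15.3% for Ikzf1, and 4.24% to 7.65% for the other 5. In cKO-labelled libraries it was between 0.477% and 8.54% for all 9. WT replicate 1 was the lowest WT library for Spi1, Irf8, Tfec and Lyl1 but the highest for Maf, Cebpb, Ikzf1 and Runx1, so the factors did not share an order of WT libraries.

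Macrophage markers moved with the factors. Of 16 listed markers 15 were tested (all but Cd163). All 15 were called higher in the cKO-labelled libraries, against 6.56% of all tested genes. The log2 fold changes of the markers ran from 1.73 for Cd14 to 4.42 for Aif1, around a median of 2.97. Their summed level was 1218 to 1371 CPM in WT and 6465 to 6773 CPM in cKO-labelled libraries. This was a 5.11-fold difference, and most of that sum was Lyz2. In bulk samples a change in the number of cells of a type and a change in RNA per cell cannot be told apart, and the part of macrophage content in the rise of the factors was not tested. The plot of fold changes sets the factors beside the markers. Spi1 and Ikzf1 rose more than 8 of the 15 markers, Irf8 and Lyl1 more than 6, Tfec and Maf more than 1, and Cebpa, Runx1 and Cebpb more than 0. The 95% confidence intervals of Maf (1.70 to 1.92) and Cebpa (1.58 to 1.87) both held the value of the lowest marker, Cd14, whereas those of Runx1 and Cebpb lay below it.

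**Figure D2:**
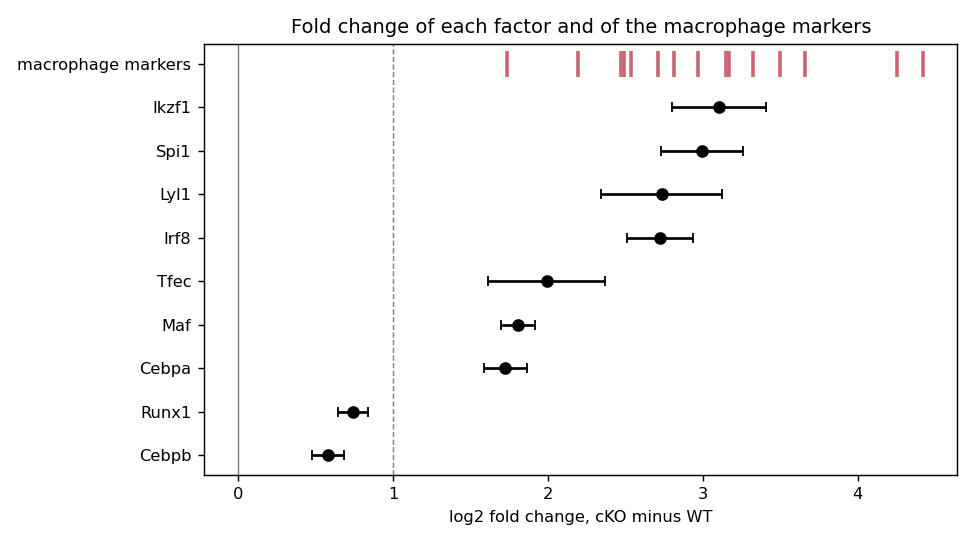
Log2 fold change of each factor, cKO minus WT, with its 95% confidence interval (black), and the log2 fold changes of the 15 tested macrophage markers (red bars). The solid line is 0 and the dashed line is the fold limit of 1, which only Runx1 and Cebpb lie below.

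Set against the summed macrophage markers in the same library, the factors moved in opposite directions. The log2 ratio of Spi1 to the marker sum was higher in cKO-labelled libraries by 0.67, that of Ikzf1 by 0.77, that of Lyl1 by 0.40 and that of Irf8 by 0.37, with no overlap between groups. The ratio of Maf fell by 0.55, of Cebpa by 0.63, of Runx1 by 1.61 and of Cebpb by 1.77, also without overlap, while that of Tfec differed by -0.33 with overlapping libraries. Without Csf1r and Lyz2 in the sum the differences were 0.31 for Spi1, 0.41 for Ikzf1, 0.041 for Lyl1 and 0.0078 for Irf8, now with overlapping libraries for these 4, and the ratios of Maf, Cebpa, Runx1, Cebpb and Tfec differed by -0.91, -0.99, -1.97, -2.13 and -0.69 (cKO-labelled minus WT). These ratios are descriptions and carry no test.

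Of 44 genes listed by hand as relatives of the factors, 37 were tested. The list was broader than the families proper. Under RUNX it also held Cbfb and Runx1t1, whereas the deposited table assigns 3 genes to the Runt family. Of the 37 tested, 7 (18.9%) passed as higher and 0 as lower, against 6.56% and 4.64% of all genes, and the middle log2 fold change was 0.14. At the adjusted p alone 17 were higher and 6 were lower, where 20.1% and 19.2% of all genes were, and 14 did not pass. The count of 0 called lower was the same by DESeq2, edgeR's exact test and limma-voom, with 8 lower at an unadjusted p of 0.05. In the plot of families the factors of the ETS, IRF, C/EBP, Ikaros, RUNX and MiT/TFE families lie above every tested relative, whereas Tal1 lies above Lyl1.

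**Figure D3:**
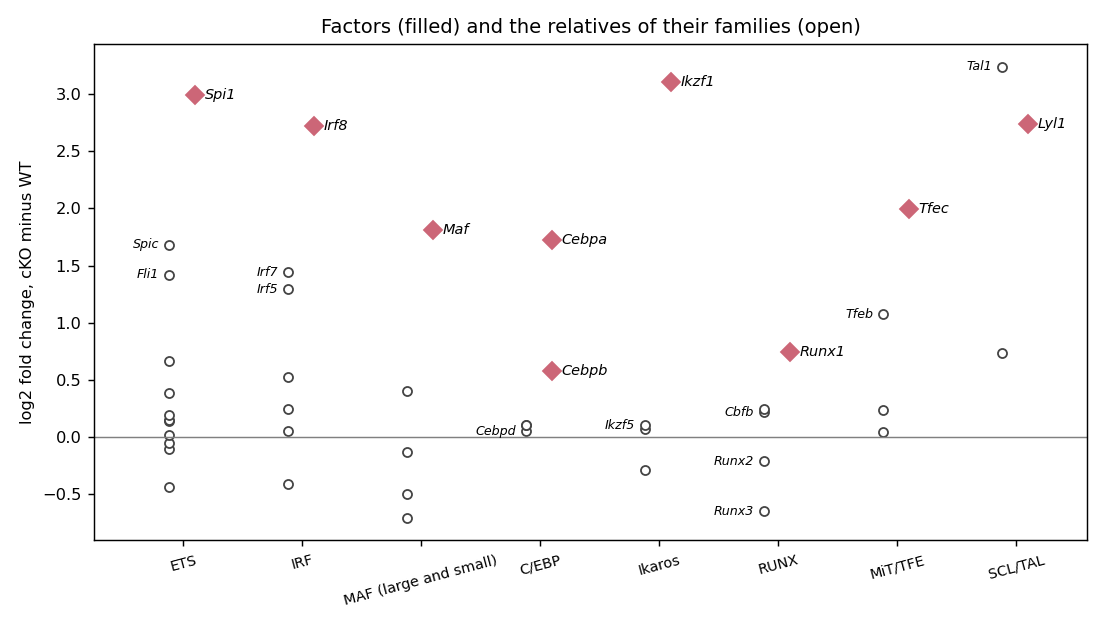
Log2 fold change, cKO minus WT, of the 9 factors (filled diamonds) and of tested relatives (open circles) by family, with the relatives named in the text labelled. Tal1 lies above Lyl1 at 3.24 and 2.73, and the C/EBP, Ikaros and RUNX relatives lie near or below 0.

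Tal1, the closest relative of Lyl1 in blood stem cells, was at 0.668 ± 0.474 CPM in WT and rose to 6.17 ± 0.239 CPM (3.24, adjusted p = 1.74e-06). Fli1, an ETS factor of blood and endothelial cells, rose from 6.86 ± 0.562 to 18.3 ± 2.48 CPM (1.42, adjusted p = 1.88e-08), and Spic, the PU.1-related factor of red pulp macrophages, from 0.305 ± 0.335 to 1.02 ± 0.161 CPM (1.68, adjusted p = 0.0306). Among interferon regulatory factors, Irf5 of inflammatory macrophages had a log2 fold change of 1.29 (adjusted p = 1.73e-09) and Irf7, an interferon-inducible factor, one of 1.44 (adjusted p = 6.85e-05). Tfeb, a regulator of lysosomal genes, rose by 1.07 on the log2 scale (adjusted p = 4.23e-06). The call of Spic was lost when any 1 library other than WT replicate 2 was left out (adjusted p 0.059 to 0.117), and that of Tfeb without cKO replicate 3, where its log2 fold change was 0.97.

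No relative was called in the C/EBP, Ikaros and RUNX families. The most abundant C/EBP relative, Cebpd, which like Cebpb responds to LPS, stood at 227.1 ± 13.2 CPM in WT and 235.5 ± 7.14 CPM in cKO-labelled libraries (log2 fold change 0.05, adjusted p = 0.409). Ikzf5 stood at 26.8 ± 1.01 and 28.8 ± 2.08 CPM (0.10, adjusted p = 0.288). Cbfb, the partner subunit shared by all RUNX proteins, rose under the fold limit (0.22, adjusted p = 0.0162). Runx2, the osteoblast factor, fell by 0.21 on the log2 scale (adjusted p = 0.0118), and Runx3 fell by 0.65 (adjusted p = 1.11e-05), in contrast to Runx1.

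Ratios within families differed between groups for most pairs. As the plot of ratios shows, the per-length level of Runx1 relative to Runx2 went from 3.10 in WT to 5.98 in cKO-labelled libraries, Spi1 relative to Fli1 from 1.38 to 4.21, Irf8 relative to Irf5 from 0.164 to 0.442, Tfec relative to Mitf from 0.0689 to 0.272 and Cebpa relative to Cebpb from 0.0430 to 0.0951, each without overlap between the libraries of the groups. The ratio of Lyl1 to Tal1 overlapped between groups, with few Tal1 counts in WT.

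**Figure D4:**
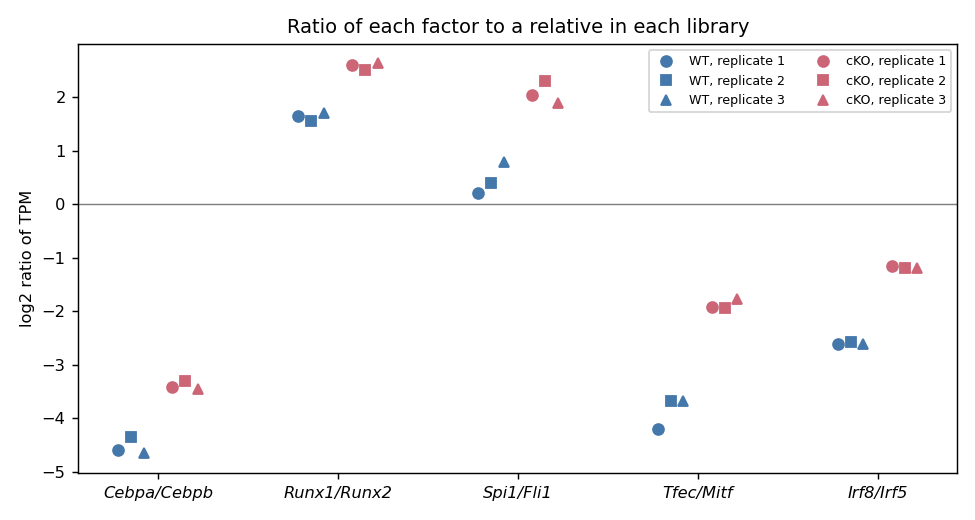
Log2 ratio of TPM of a factor to a relative of its family (or of Cebpa to Cebpb) in each WT (blue) and cKO-labelled (red) library, with the marker shape giving the replicate number. In each of the 5 pairs every cKO-labelled library lies above every WT library.

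Of the 1525 genes that the deposited table assigns to a transcription factor family, 1066 were tested, 42 were called higher (3.94%) and 47 lower (4.41%). Ordered by log2 fold change among these 1066, Ikzf1 held place 7, Spi1 8, Lyl1 10, Irf8 11, Tfec 14, Maf 18 and Cebpa 20, and Runx1 and Cebpb held places 75 and 102.

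Of 30 other factors of the myeloid lineage 27 were tested, and 7 of them (25.9%) were called higher and 2 (7.41%) lower, against 6.56% and 4.64% of all genes. Their median log2 fold change was 0.59. Lmo2, which bridges Tal1 or Lyl1 to GATA factors, increased from 1.75 ± 0.348 to 17.6 ± 1.98 CPM (a change of 3.32 on the log2 scale, adjusted p = 6.33e-12), Hhex, a homeobox factor of blood and endothelial precursors, rose by 3.43 (adjusted p = 2.96e-09), and Bhlhe41, a repressor active in tissue macrophages, rose by 0.89, under the fold limit (adjusted p = 2.47e-09). Egr2, an early response gene that marks alternatively activated macrophages, fell from 11.8 ± 0.669 to 3.84 ± 0.414 CPM (-1.62, adjusted p = 1.61e-08). Bhlhe40 fell by 0.52 on the log2 scale (adjusted p = 2.69e-08), and Bcl11a, a factor of lymphoid and dendritic precursors, went from 0.370 ± 0.186 CPM to 0 in all 3 cKO-labelled libraries (adjusted p = 0.000379).

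Factors of other blood lineages and of the skeletal lineage were read against the 6.56% of all genes called higher and 4.64% called lower, shares at which lists of this size would hold few calls. Of 8 tested factors of other blood lineages (16 listed) 0 were called higher, with 0 higher at an unadjusted p of 0.05 and by DESeq2, edgeR's exact test and limma-voom, and 1 was called lower. Their median log2 fold change was -0.18. Foxp3 was called higher once WT replicate 1 was left out (adjusted p = 0.0384). Gata3, of T cells, fell from 0.614 ± 0.187 to 0.114 ± 0.0758 CPM (adjusted p = 0.00457), and Ebf1 and Foxo1 fell by 0.37 and 0.22 on the log2 scale (adjusted p = 0.000968 and 0.00168). Of the 20 skeletal factors, all tested, 0 were called higher (4 at an unadjusted p of 0.05, 0 by the other 3 tools). There were 3 called lower (13 at an unadjusted p of 0.05), and the median was -0.32. At the adjusted p alone 4 skeletal factors were higher and 12 lower, where 20.1% and 19.2% of all genes were. Mef2c, at 0.92 on the log2 scale, passed the fold limit without WT replicate 3. Twist2 and Alx4, of mesenchymal and limb precursors, fell by 1.45 and 2.54 on the log2 scale (adjusted p = 7.81e-09 and 1.06e-08), Dlx6 fell by 2.02 (adjusted p = 0.00394), and Prrx1, of limb mesenchyme, fell by 0.36 (adjusted p = 2.65e-07).

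Binding partners and regulators of the factors moved in both directions. Of 22 tested, 2 (9.09%) were called higher and 0 lower, near the 6.56% and 4.64% of all genes (9 lower at an unadjusted p of 0.05, 0 called by DESeq2, edgeR's exact test and limma-voom), and the median log2 fold change was -0.03. Fos, the AP-1 subunit that can pair with MAF proteins, rose from 13.1 ± 0.0523 to 64.1 ± 1.77 CPM (2.29, adjusted p = 5.13e-15), and Atf3, a stress-induced factor of the ATF family, rose by 1.36 (adjusted p = 4.79e-09). Lmo4 rose by 0.55, under the fold limit (adjusted p = 3.67e-08). Trib3 was called lower without WT replicate 3 (-1.05) and stood at -0.93 with all libraries. Ddit3, which encodes the C/EBP inhibitor CHOP, fell by 0.72 on the log2 scale (adjusted p = 1.15e-06). Trib1, whose product directs C/EBP alpha to degradation, rose by 0.61 (adjusted p = 2.08e-07), while Cop1, the ligase it recruits, fell by 0.25 (adjusted p = 0.000841).

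Genes known as targets of the factors in macrophages rose in most cases, as the plot of targets shows. Of 37 listed, 35 were tested, and 23 of them (65.7%) were called higher and 0 lower. Over all tested genes 6.56% were called higher and 4.64% lower, the background for the counts by factor below as well. The median log2 fold change of the targets was 2.17. At the adjusted p alone 30 targets were higher and 3 lower, where 20.1% and 19.2% of all genes were. The 0 lower stood with 4 lower at an unadjusted p of 0.05, 0 by DESeq2 and limma-voom, and 1 by edgeR's exact test (Csf3, log2 fold change -1.11, adjusted p = 0.0355). Of the 35 targets 9 were also listed as macrophage markers, and of the other 26 there were 14 called higher, at a median of 1.24.

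**Figure D5:**
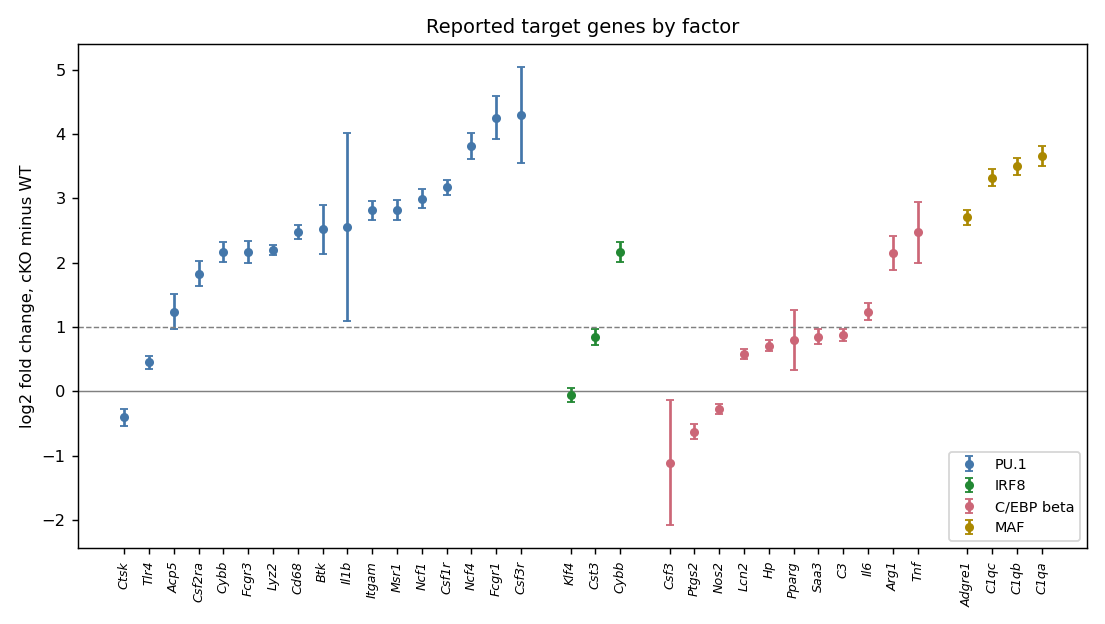
Log2 fold change, cKO minus WT, with 95% confidence interval, of tested target genes grouped by factor, with Cybb listed under both PU.1 and IRF8. The 4 targets of MAF, all of them also listed as macrophage markers, lie above 2.7. Those of C/EBP beta run from -1.11 for Csf3 to 2.47 for Tnf.

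Targets of PU.1 numbered 17, of which 15 were called higher, with a median of 2.52. Csf1r, the receptor that macrophages need for survival, rose by 3.17 (adjusted p = 3.63e-17), Lyz2, encoding lysozyme, by 2.20 (adjusted p = 5.71e-17) and Cd68, a lysosomal glycoprotein, by 2.47 (adjusted p = 2.3e-16). Tlr4, the LPS receptor, rose under the fold limit (0.45), and Ctsk, the osteoclast collagenase also made by other bone cells, fell by 0.41 on the log2 scale. The call of Il1b was lost by DESeq2 (adjusted p = 0.171) and without cKO replicate 3 (adjusted p = 0.0694).

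Of the 4 tested IRF8 targets 2 were called higher, among them Cybb, which encodes a subunit of the phagocyte oxidase (2.17), Cst3 rose by 0.85 and Klf4 was at -0.05 (adjusted p = 0.457). The 4 tested targets of MAF were all called higher, and all 4 were among the macrophage markers already counted above. C1qa, C1qb and C1qc, the chains of complement C1q, rose by 3.66, 3.50 and 3.32, and Adgre1, encoding the F4/80 antigen, by 2.71. Il10 was not tested.

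Targets of C/EBP beta moved less together. Of 11 tested, 3 were called higher, with a median of 0.80. At the adjusted p alone 8 of the 11 were higher and 2 lower, where 20.1% and 19.2% of all genes were. Il6 rose from 250.4 ± 25.9 to 590.0 ± 36.9 CPM (1.24, adjusted p = 1.86e-11), Arg1 by 2.15 (adjusted p = 2.35e-10) and Tnf by 2.47 (adjusted p = 7.5e-08). Ptgs2, encoding the prostaglandin synthase COX-2, and Nos2, the inducible nitric oxide synthase, fell by 0.63 and 0.28 on the log2 scale.

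The genes most like each factor over the 6 libraries were sought among 12396 protein-coding genes with a mean of at least 1 CPM, by the root mean square distance between centered log2 CPM profiles. For Spi1 these were Dock2, a guanine nucleotide exchange factor of blood cells (distance 0.068), and Blnk, an adaptor of B cells and macrophages (0.087), and for Irf8 they were Lilrb4a, an inhibitory myeloid receptor (0.034), and Adgre1 (0.038). Maf was nearest to Mmp13 and Reps2, Cebpa to Tbx5 and Cd53, Cebpb to Dop1b and Pcdhb16, Ikzf1 to Tifab and Col11a2, Runx1 to Pde8a and Dkk3, Tfec to Mmp8 and Kdr, and Lyl1 to Stra6l and Lcp2, at distances of 0.029 to 0.132. Blood cell genes stood beside cartilage, matrix and vessel genes in this search, in which any gene with a similar fold change and similar spread is close. With 6 libraries in 2 groups the distance carries no test.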

How the data were processed

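RNA sequencing libraries of stimulated primary osteocytes, 3 WT and 3 labelled cKO, were analysed, and grouped by their titles. The authors deposited raw counts per gene with the gene length in bases, made from 150 bp paired reads trimmed, aligned to mm39 with HISAT2 and counted with featureCounts. The labels and the methods name different featureCounts releases, and the strand setting is not given in the sources used here, so reads of overlapping genes may be shared.

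From the counts, filterByExpr, TMM and the quasi-likelihood test of edgeR 4.0.16 (R 4.3.3) were run with genotype as the only term, with Benjamini-Hochberg adjustment over 17146 genes. CPM used TMM-scaled library sizes, and TPM used the deposited lengths. The procedure was tested on simulated data. Alternatives were DESeq2 1.42.0, the edgeR exact test, limma-voom (limma 3.58.1), other scalings, filters, halved counts, a replicate block and each library left out.

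The 9 factors, and all lists, were chosen with earlier results of these data known. Lists were written by hand (family relatives, other myeloid, other blood and skeletal factors, partners, targets, and markers of 14 cell types). Text names every factor, Gsdmd, every called relative or the most abundant of its family, the 3 genes of smallest p per list and genes that fell where others rose, and the 2 nearest genes per factor, plus markers beside a result, except 2 genes that are not reported here. Lmo4, Cop1, Trib1, Ddit3, Trib3, Foxp3, Mef2c, Dlx6, Tlr4, Cst3, Klf4, Csf3, Runx2, Runx3 and the genes of the closing section outside this rule were chosen after their values were seen.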

Additional observations from a re-analysis of the deposited data

How the results depend on the processing

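Every factor kept its direction and its side of the adjusted p threshold in all 153 combinations of 9 factors and 17 alternative settings. The setting without a limit on the fold change repeats the main fit for each factor, so its combinations could not differ. Over all of these the log2 fold change lay between 2.81 and 3.21 for Spi1, 2.65 and 2.74 for Irf8, 1.74 and 1.84 for Maf, 1.66 and 1.75 for Cebpa, 0.51 and 0.62 for Cebpb, 3.00 and 3.20 for Ikzf1, 0.67 and 0.78 for Runx1, 1.78 and 2.10 for Tfec, and 2.56 and 2.84 for Lyl1. The widest range, that of Spi1, came from leaving out WT replicate 1 (2.81) or WT replicate 3 (3.21). Scaling by upper quartiles moved the median of all genes to -0.061, the largest shift.

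Of 136 recomputed counts, 128 stayed within 1.5 times. Without a limit on the fold change, 9 factors, 17 relatives, 80 genes of the other lists and 3445 of all genes were higher, and 6 relatives, 48 genes of the other lists and 3285 of all genes were lower. With at least 10 counts in every library, which leaves out genes at 0 in a group, 522 of all genes and 6 genes of the other lists were called lower, against 796 and 13. Leaving out each library in turn gave 7 factors called higher and 0 lower, 5 to 7 relatives higher and 0 lower, 50 to 53 genes of the other lists higher and 13 to 15 lower, and 1027 to 1153 of all genes higher and 773 to 827 lower. Batf, called higher in the list of myeloid factors, lost its call when any 1 of 4 libraries was left out. Leaving Csf1r and Lyz2 out of the macrophage sum changed only the sum that all factors share. The differences in ratio (cKO-labelled minus WT) therefore shifted together by the same amount, beyond the spread between libraries. They became 0.308 for Spi1, 0.0078 for Irf8, -0.906 for Maf, -0.986 for Cebpa, -2.13 for Cebpb, 0.406 for Ikzf1, -1.97 for Runx1, -0.689 for Tfec and 0.0406 for Lyl1.

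With the replicate number as a block (replicate block), 7 factors, 7 relatives, 52 genes of the other lists and 1087 of all genes were called higher, and 0, 0, 13 and 772 lower. Deviations of same-numbered WT and cKO-labelled libraries correlated at -9.23e-05, 0.00116 and -0.0136, so these values showed no pairing by number. With 3 libraries a group this cannot exclude that same-numbered cultures were handled together. Depth limits the low genes most, with 45 to 90 counts a library for Lyl1 and Ikzf1 in WT. 3 libraries a group, confounded with sex, and the absence of unstimulated libraries limit every comparison.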

Other observations

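Genes listed as markers of blood cells other than macrophages, and of osteoclasts, did not move as one. A gene listed for 1 cell type can be made by others, as with Blnk, named above as an adaptor of B cells and macrophages. Whether rises in these lists were separate from the rise of the macrophage markers was not tested. Of 8 tested osteoclast markers 3 were called higher and 1 lower. The shares of all tested genes, for this and the other cell types below, were 6.56% higher and 4.64% lower. Tnfrsf11a, the receptor RANK, rose from 1.68 ± 0.256 to 16.02 ± 1.53 CPM, and Mmp9 fell from 21.9 ± 3.70 to 3.05 ± 0.609 CPM (edgeR quasi-likelihood test, adjusted p = 5.42e-12 and 5.06e-11). Of 2 tested dendritic cell markers Itgax was called higher (log2 fold change 2.86) and H2-Ab1, a class II antigen-presenting chain, lower (-2.46), with Flt3, Cd209a and Siglech at 0 in all libraries. Of 2 tested neutrophil markers S100a8 was called higher, of 2 B cell markers Blnk was, and of 3 megakaryocyte markers Pf4 was, from 15.3 ± 1.07 to 163.6 ± 12.9 CPM. Another megakaryocyte marker, Ppbp, fell under the fold limit (log2 fold change -0.56). Of 2 tested T cell markers Trac was called lower, and no erythroid or mast cell marker passed the filter on low counts.

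Markers of cells outside the blood were mixed. Of 6 tested chondrocyte markers 3 were called higher, among them Acan, the aggrecan core protein, from 0.124 ± 0.0736 to 20.2 ± 0.521 CPM. At the adjusted p alone 4 of these chondrocyte markers were higher and 2 lower. The lowest of them was Col2a1, with a log2 fold change of -0.84. Of 7 endothelial markers 2 were called higher (Vwf and Kdr) and 4 lower (Emcn, Tek, Cdh5 and Pecam1, of which Pecam1 lost its call when any 1 of 4 libraries was left out). Of 9 stromal markers Cxcl12 and Lum were called higher, and of 8 tested osteoblast markers Ibsp was. At the adjusted p alone 5 of these osteoblast markers were lower and 2 higher, with a median log2 fold change of -0.40. The summed level of the osteoblast list was 21800 to 23900 CPM in WT and 15200 to 15800 CPM in cKO-labelled libraries. Of the stromal markers 4 were lower and 3 higher at the adjusted p (median -0.058). None of 4 tested osteocyte markers was called in either direction by edgeR. Among them Tnfrsf11b, the decoy receptor osteoprotegerin, fell by 0.82 on the log2 scale (edgeR quasi-likelihood test, adjusted p = 3.53e-11).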
